A study of Mus musculus with 2 samples.

Results

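The beta common cytokine receptor family comprises the receptors of 3 blood cell cytokines, interleukin 3 (IL-3), interleukin 5 (IL-5) and GM-CSF, together with the cytokines themselves. Its 8 members were found by symbol in the gene list of the matrix, out of 32285 genes: the beta chains Csf2rb and Csf2rb2, the alpha chains Il3ra, Csf2ra and Il5ra, and the ligand genes Il3, Csf2 and Il5. The RNA of single cells was sequenced. The cells came from colonies that grew out of aortic tissue of 2 mice, labelled as C57BL/6J males at an age of 12 weeks. Dissociated aortic cells grew for 14 days in MethoCult, a methylcellulose medium whose cytokine content the labels do not give. Colonies of the type called CFU-M (colony-forming unit macrophage) were then dispersed, and DAPI was used to sort viable cells for 1 pooled droplet library. The labels describe no other genotype, treatment or control, and the cells of both mice cannot be told apart in the matrix.

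An alpha chain binds 1 of the cytokines, and signalling starts when a beta chain joins it and brings the kinase JAK2, which activates STAT5. Csf2rb, the common beta chain, serves all 3 alpha chains. Mice carry an additional beta chain, Csf2rb2, which pairs with Il3ra alone. IL-3 promotes the growth of cultured mast cells, GM-CSF that of macrophages and granulocytes, and IL-5 that of eosinophils.

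After filtering, 30755 cells remained of 34813 barcodes, with a median of 12728 unique molecular identifiers (UMIs, each marking 1 captured RNA molecule) and a range from 1001 to 243243. Clusters were named from marker genes and called mast cell-like (6 clusters, 22269 cells, 72.4%), fibroblast-like (5410 cells, 17.6%) and macrophage-like (2726 cells, 8.86%), and 350 cells in 3 clusters stayed unnamed. Macrophage-like cells were therefore a minority of the kept cells of the pool. The matrix also held 3 cell tags named Cafum, Matrigel and Macrophages. What these names denote is not given in the sources used here. Of the mast cell-like cells 71.1% were called for Cafum alone, of the macrophage-like cells 71.3% for Macrophages alone. Of the fibroblast-like cells 48.2% were called for Matrigel alone. The class shares thus describe the pool and not a single kind of colony. Xist, a transcript of the inactive X chromosome of female cells, was detected in 65.6% of mast cell-like, 59.6% of macrophage-like and 82.7% of fibroblast-like cells, which goes against the label of male mice. Levels are given as CPM (counts per 1000000), the UMIs of a gene summed over a group of cells per 1000000 gene UMIs. There was 1 library, so no difference has a replicate check, and the 95% intervals cover counting error only.

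The beta chains are near copies, so their sequences decide whether molecules can be assigned to one or the other. Csf2rb lies at chr15:78325752-78353847 on the plus strand of mm10 (GRCm38) and Csf2rb2 at chr15:78282507-78305721 on the minus strand, 20030 bases apart, and each overlaps a microRNA gene on its own strand (Mir7676-2 and Mir7676-1). Their longest coding sequences in GENCODE hold 2688 and 2634 bases and matched at 95.2% of 2628 aligned bases. Of all stretches of 90 bases, 8.19% of the Csf2rb transcript also occurred without mismatch in Csf2rb2, and 8.47% of the Csf2rb2 transcript in Csf2rb. In the last 500 bases of each transcript, where 3′ libraries take most of their reads, no such stretch was shared (0%). The 60 aligned coding bases with the most differences (13, in capitals) show how the copies part. They are coding bases 304 to 363 of Csf2rb and 307 to 366 of Csf2rb2, 5′ to 3′.

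Csf2rb: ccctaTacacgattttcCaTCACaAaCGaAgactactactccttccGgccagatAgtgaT

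Csf2rb2: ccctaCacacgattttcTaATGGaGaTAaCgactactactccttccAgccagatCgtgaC

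The other members lie apart from the beta chains. Il3ra is at chr14:14346275-14356011 (plus strand), Csf2ra at chr19:61223957-61228429 (minus) and Il5ra at chr6:106710357-106749037 (minus). The ligand genes share chromosome 11: Il5 at chr11:53720794-53725106 (plus), Csf2 at chr11:54247271-54249667 (minus) and Il3 at chr11:54265303-54267277 (minus), with 15635 bases and no other protein-coding gene between Csf2 and Il3. An annotated antisense gene overlaps Il3ra, Il5 and Csf2. Whether the counting used strand is not given in the sources used here, so UMIs of these 3 genes and of their antisense partners may not be separable.

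RefSeq promoters (GRCm38.p6) were at hand for 7 of the 8 members. The 250 bases before the start are shown for Csf2rb2 and Il5ra, which were highest in mast cell-like cells, and for Csf2ra, which was highest in macrophage-like cells. They were searched on both strands for AGATAA, a form of the motif bound by GATA factors, for AGGAAG, a form of the motif bound by ETS factors, and for TTCCNGGAA, a form of the motif bound by STAT factors, and matches are in capitals. No matches overlapped. AGATAA occurs in 9.99%, AGGAAG in 29.5% and TTCCNGGAA in 0.913% of all 32851 promoters of this length in the table. A match is a description of the letters and not evidence of binding. The Csf2rb2 stretch is chr15:78305722-78305971, the Csf2ra stretch chr19:61228419-61228668 and the Il5ra stretch chr6:106749038-106749287, all on the minus strand and printed 5′ to 3′.

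Csf2rb2: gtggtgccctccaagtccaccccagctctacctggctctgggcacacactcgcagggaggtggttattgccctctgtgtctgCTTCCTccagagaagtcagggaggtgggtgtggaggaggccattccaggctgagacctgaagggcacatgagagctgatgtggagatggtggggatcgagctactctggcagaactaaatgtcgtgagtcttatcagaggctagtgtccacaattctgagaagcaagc

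Csf2ra: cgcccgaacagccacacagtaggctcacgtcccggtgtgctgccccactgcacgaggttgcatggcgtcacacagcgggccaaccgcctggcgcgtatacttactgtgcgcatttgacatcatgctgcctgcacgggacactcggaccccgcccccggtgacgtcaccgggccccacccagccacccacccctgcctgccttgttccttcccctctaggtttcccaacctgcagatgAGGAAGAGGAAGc

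Il5ra: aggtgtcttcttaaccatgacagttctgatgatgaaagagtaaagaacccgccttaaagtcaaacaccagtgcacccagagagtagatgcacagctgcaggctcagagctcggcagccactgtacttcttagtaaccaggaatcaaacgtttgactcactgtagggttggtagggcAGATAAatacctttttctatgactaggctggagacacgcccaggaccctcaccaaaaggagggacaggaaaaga

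The Il5ra stretch held 1 AGATAA, 74 to 69 bases before the start. The Csf2ra stretch held AGGAAG 2 times, end to end, in the last 13 bases before the RefSeq start. GENCODE places the end of the Csf2ra gene on this side further out, so by its coordinates most of both matches lie inside the gene. The Csf2rb2 stretch held AGGAAG 1 time, on the opposite strand, and no AGATAA. Other forms of these motifs, such as TGATAA, were not searched, and the printed Csf2rb2 letters hold TGATAA on the opposite strand (ttatca). TTCCNGGAA was in none of the 7 members' stretches (0 matches). Il3 and Csf2, which were almost without UMIs, each had 1 AGATAA.

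Csf2rb was highest in mast cell-like cells. Its level was 1301 CPM there (95% interval 1297 to 1305), 571 CPM in the macrophage-like class (562 to 580) and 207 CPM in the fibroblast-like class (205 to 209). Csf2rb2 followed the same order, at 1239 CPM (1235 to 1243), 545 CPM (537 to 554) and 207 CPM (205 to 209). Both beta chains thus stood in macrophage-like cells at 0.44 times their level in mast cell-like cells: the ratio was 0.439 (0.432 to 0.446) for Csf2rb and 0.440 (0.433 to 0.447) for Csf2rb2. In fibroblast-like cells the ratios were 0.159 (0.158 to 0.161) and 0.167 (0.165 to 0.169). In mast cell-like cells the genes were read deeply, with 395723 UMIs of Csf2rb and 377047 of Csf2rb2, and up to 120 and 99 UMIs in a single cell.

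Within the mast cell-like class the beta chains varied by cluster. Csf2rb reached 1701 CPM in cluster 0, whose leading genes include the mast cell receptors Mrgprb1 and Mrgprb2, and 1480 CPM in cluster 4, led in part by the serotonin transporter gene Slc6a4. It was 1261 CPM in cluster 3, led by the protease gene Ctsg, and 1228 CPM in cluster 2, led by haemoglobin genes. The lowest levels, 961 and 925 CPM, were those of clusters 6 and 7, which are led by genes of mitosis and by histone genes. None of the intervals of neighbours in this order overlapped. For Csf2rb2 the order was the same at the top, with 1811 CPM in cluster 0 and 1365 CPM in cluster 4, while clusters 2 and 3 (1190 and 1188 CPM) did not differ beyond counting error. It was 810 CPM in cluster 7 and 730 CPM in cluster 6. CPM is a share of a cell's RNA, and the dividing clusters have more of it: median UMIs were 16829 in cluster 6 and 24035 in cluster 7 against 9856.5 in cluster 0. Per cell, cluster 7 held a mean of 23.0 Csf2rb UMIs and cluster 0 a mean of 19.0, so the order of the pair turned with the scale.

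**Figure D1:**
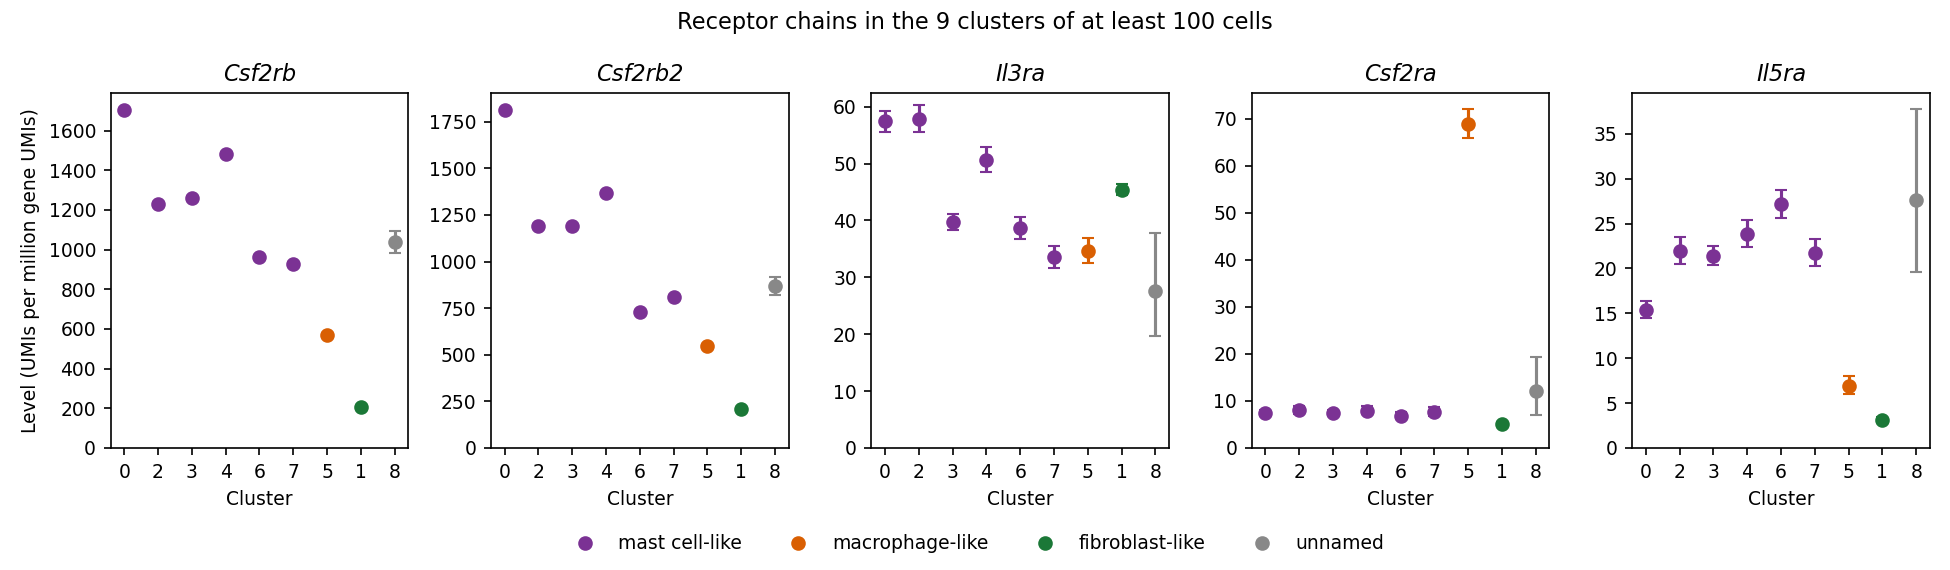
Level of each receptor chain (vertical axis, UMIs per 1000000 gene UMIs, starting at 0) in the 9 clusters of at least 100 cells (horizontal axis, cluster number), coloured by class; bars are exact Poisson 95% intervals, which cover counting error only. Csf2rb and Csf2rb2 are highest in mast cell-like clusters, Csf2ra stands at 69.0 in the macrophage-like cluster against 5.18 to 12.0 elsewhere, and Il3ra in fibroblast-like cells lies inside the range of the mast cell-like clusters.

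RNA of mast cells was present in the other classes, and the beta chain levels there moved with it. The levels of 7 mast cell markers (Cma1, Cpa3, Tpsb2, Mcpt4, Fcer1a, Ms4a2 and Hdc, genes of granule proteases, the IgE receptor and histamine synthesis) were divided by those in mast cell-like cells. The ratio ran from 0.311 to 0.393 in macrophage-like cells (median 0.356) and from 0.136 to 0.156 in fibroblast-like cells (median 0.152). Csf2rb and Csf2rb2 lay above all 7 markers in both classes by a small margin, which for Csf2rb in fibroblast-like cells did not hold in single-tag cells, while Il5ra lay inside the markers' range in both (0.326, interval 0.282 to 0.375, and 0.148, interval 0.136 to 0.162). Il3ra and Csf2ra lay far above it.

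Cells of each class were then ordered by the share of their UMIs from these markers and divided into 5 bins of equal size, a division chosen after seeing the data. In macrophage-like cells Csf2rb was at 109, 112 and 163 CPM in the bins with the least mast cell RNA, and at 815 and 1096 CPM in those with the most. Csf2rb2 ran from 78.3, 97.5 and 130.2 CPM to 749.9 and 1104 CPM. The levels thus fell into a low and a high set of bins, not an even slope. The share of cells called for more than 1 tag changed in step: 2.20%, 4.59% and 4.95% in the low bins, 48.1% and 70.6% in the high ones. Among the bins of fibroblast-like cells Csf2rb was at 27.9, 37.4, 54.3, 334 and 564 CPM, and 46.4% and 55.5% of the cells of the upper pair carried more than 1 tag. How much of the class levels comes from droplets that hold RNA of more than 1 cell was not tested.

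In the macrophage-like bin with the least mast cell RNA, the 7 markers stood at 0.0220 to 0.0372 times their level in mast cell-like cells. Csf2rb stood at 0.0841 times and Csf2rb2 at 0.0632 times there, above every marker, and both stayed above every marker in the next 2 bins. In the matching fibroblast-like bin the markers ran from 0.0128 to 0.0207 times. Csf2rb, at 0.0214 times, was just above them, and Csf2rb2, at 0.0303 times, was further above. The bins were made with these same markers, so the lowest bins hold low marker values partly by construction. In the macrophage-like bin with the most mast cell RNA the markers ran from 0.701 to 0.849 times. Csf2rb, at 0.842 times, lay inside that range and Csf2rb2, at 0.890 times, above it. In the fibroblast-like bin with the most, both (0.434 and 0.439) lay inside 0.401 to 0.453. Restricting each class to cells called for 1 tag, the most common of the class (15823 mast cell-like cells, 1943 that were macrophage-like, 2606 that were fibroblast-like), gave Csf2rb at 1299, 305 and 88.8 CPM. Csf2rb2 was then at 1236, 277 and 97.7 CPM. The tag was Cafum for the mast cell-like, Macrophages for the macrophage-like and Matrigel for the fibroblast-like cells. Class and tag therefore cannot be told apart in these values. In the 355 fibroblast-like cells called for Cafum alone, Csf2rb was at 538 CPM. The macrophage-like ratios became 0.235 (0.229 to 0.242) for Csf2rb and 0.224 (0.218 to 0.231) for Csf2rb2, against 0.152 to 0.207 for the markers. In single-tag fibroblast-like cells Csf2rb, at 0.0684 (0.0668 to 0.0699), lay inside the markers' range of 0.0577 to 0.0766, and Csf2rb2, at 0.0791 (0.0773 to 0.0808), lay above it. The order of the 3 classes was the same, and both beta chains were lower in the other 2 classes than with all cells.

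**Figure D2:**
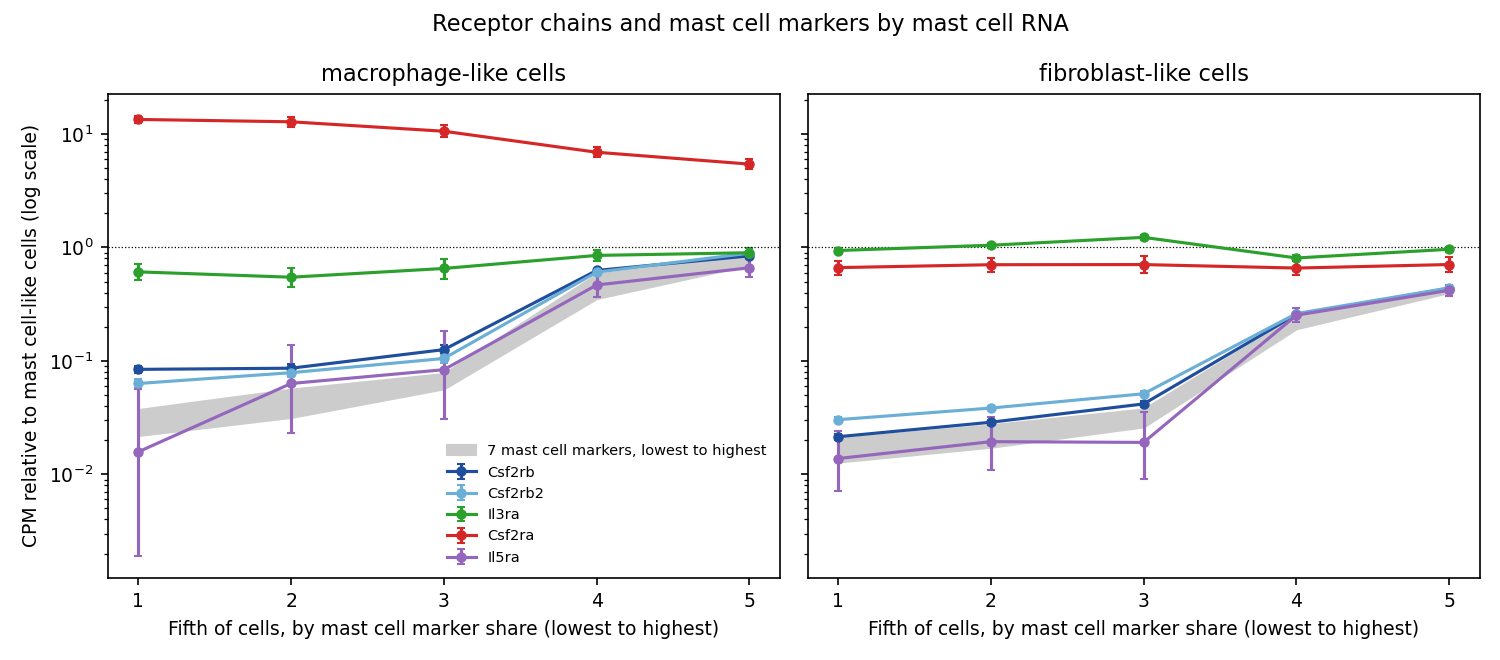
CPM of the 5 receptor chains relative to mast cell-like cells (vertical axis, log scale) in bins of macrophage-like (left) and fibroblast-like (right) cells ordered by their share of mast cell marker UMIs (horizontal axis); the grey band spans the 7 markers and bars are 95% counting intervals. The beta chains and Il5ra rise with the band, Il3ra stays near 1 in fibroblast-like cells, and Csf2ra in macrophage-like cells goes from 13.4 to 5.42.

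The balance of the beta chains differed between mast cell-like clusters. Over the class there were 95.3 Csf2rb2 UMIs per 100 Csf2rb UMIs (94.9 to 95.7), with 95.5 (93.5 to 97.6) in macrophage-like and 99.8 (98.3 to 101) in fibroblast-like cells. Such a ratio also depends on how well each 3′ end is captured, so only its changes are compared. Cluster 0 had the highest value, 106 (106 to 107), and was the only 1 of the 6 mast cell-like clusters above 100. Clusters 2, 3 and 4 lay at 96.9, 94.2 and 92.3. The dividing clusters were lowest, at 87.6 (86.2 to 88.9) in cluster 7 and 75.9 (74.8 to 77.1) in cluster 6. Relative to Csf2rb, the IL-3-specific beta chain was therefore least represented in cells with mitosis genes.

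**Figure D3:**
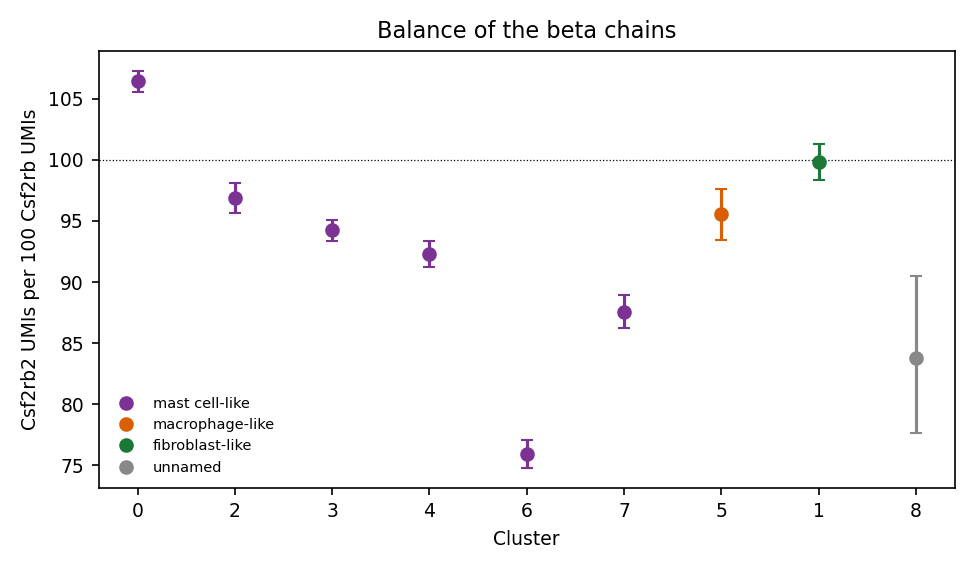
Csf2rb2 UMIs per 100 Csf2rb UMIs (vertical axis) in the 9 clusters of at least 100 cells (horizontal axis, cluster number), coloured by class, with exact 95% counting intervals and a dotted line at 100. Cluster 0 lies above the line at 106, and cluster 6, led by mitosis genes, is lowest at 75.9.

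Csf2ra, the chain that binds GM-CSF, was the member with the clearest macrophage-like pattern. It stood at 69.0 CPM (66.0 to 72.0) in the macrophage-like class, 7.56 CPM (7.26 to 7.88) in the mast cell-like class and 5.18 CPM (4.85 to 5.53) in the fibroblast-like class. The macrophage-like level was 9.12 times (8.58 to 9.68) the mast cell-like and 13.3 times (12.3 to 14.4) the fibroblast-like one. Across the mast cell-like clusters it ran only from 6.89 to 8.02 CPM, with overlapping intervals between all neighbours in order. In macrophage-like cells it was highest where mast cell RNA was lowest, at 102, 96.8, 79.9, 52.2 and 41.0 CPM over the bins, the reverse of the beta chains. Single-tag cells gave 83.6 CPM and a ratio of 11.1 (10.3 to 11.9). Some markers listed for other myeloid cells were also present in this class: 2 of 6 neutrophil markers and 2 of 4 monocyte markers reached 50 CPM. Summed levels were 329.8 and 2063 CPM against 0.812 and 18.7 CPM in the mast cell-like class. Few genes made up these sums: F13a1 was at 1918 and Ccr2 at 114 CPM, with Plac8 at 26.6 and Ly6c2 at 4.35 CPM. S100a8 and S100a9 were at 141 and 176 CPM, and the other neutrophil markers at 0.0685 (Ly6g) to 7.91 CPM (Retnlg). The part of such cells in the Csf2ra level was not tested.

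Il3ra, the chain that binds IL-3, had the smallest differences between classes of the 5 receptor chains. The Il3ra level was 46.5 CPM (45.7 to 47.2) in the mast cell-like class, 45.4 CPM (44.4 to 46.4) in the fibroblast-like class and 34.7 CPM (32.6 to 36.9) in the macrophage-like class. The fibroblast-like ratio to mast cell-like cells was 0.977, with an interval that includes 1 (0.9505 to 1.00). That level did not follow mast cell RNA: over the fibroblast-like bins it was 43.6, 48.6, 57.0, 37.5 and 44.7 CPM. In macrophage-like cells Il3ra was at 28.3, 25.4 and 30.3 CPM in the low bins and at 39.5 and 41.7 CPM in the high ones. Within the mast cell-like class it was highest in clusters 2 and 0 (57.8 and 57.4 CPM, intervals overlapping) and lowest in cluster 7 (33.6 CPM), while cluster 4 was at 50.6, cluster 3 at 39.7 and cluster 6 at 38.6 CPM. Because Il3ra overlaps an antisense gene, these UMIs may include that partner.

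Il5ra, the chain that binds IL-5, was a low mast cell-like gene with an order of its own. Its level was 21.3 CPM (20.8 to 21.9) in the mast cell-like class, 6.95 CPM (6.03 to 7.98) in the macrophage-like class and 3.17 CPM (2.91 to 3.44) in the fibroblast-like class. In the bins with the least mast cell RNA it was at 0.337 CPM (2 UMIs) and 0.294 CPM (12 UMIs) in these last classes. Among mast cell-like clusters it was highest in cluster 6 (27.1 CPM) and lowest in cluster 0 (15.4 CPM), which is the cluster with the most Csf2rb. Clusters 4, 2, 7 and 3 lay between, at 23.8, 21.9, 21.7 and 21.4 CPM, with overlapping intervals from each to the next. Eosinophils are the cells best known for Il5ra. None of 5 eosinophil markers reached 50 CPM in the mast cell-like class, a bar that lies above the Il5ra level itself. Their summed level was 7.28 CPM, of which Ccr3 made up 6.72 CPM, and the part of such cells in the Il5ra level was not tested.

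Whole receptors were counted as cells with UMIs of an alpha chain and a matching beta chain, after thinning each cell to 5500 UMIs. Of the mast cell-like cells 20808 could be thinned and 1461 were too shallow, while for macrophage-like cells these numbers were 2171 and 555 and for fibroblast-like ones 5222 and 188. Thinned mast cell-like cells had a median of 7 Csf2rb UMIs, and 99.3% had at least 1 (unthinned 99.8%). The share with Csf2rb was 65.5% (unthinned 69.2%) in macrophage-like and 44.8% (unthinned 74.4%) in fibroblast-like cells, where the unthinned medians were 8787 and 31224.5 UMIs. The fibroblast-like share is given for comparison, and the part of mast cell RNA in it was not tested. Il3ra with either beta chain was found in 24.0% (23.4 to 24.6) of mast cell-like cells, 13.5% (12.1 to 15.1) of macrophage-like and 13.6% (12.7 to 14.6) of fibroblast-like cells. Csf2ra with Csf2rb was found in 18.8% (17.2 to 20.5) of macrophage-like cells, 3.96% (3.69 to 4.23) of mast cell-like and 1.59% (1.27 to 1.97) of fibroblast-like cells. Il5ra with Csf2rb was found in 10.5% (10.1 to 10.9) of mast cell-like cells, 3.13% (2.44 to 3.95) of macrophage-like and 1.30% (1.01 to 1.65) of fibroblast-like cells. Unthinned, the shares were 44.5%, 25.8% and 65.6% for the IL-3 receptor, 9.39%, 32.9% and 10.9% for the GM-CSF receptor and 22.7%, 6.02% and 7.89% for the IL-5 receptor, in the order mast cell-like, macrophage-like, fibroblast-like. The order of the classes for the IL-3 receptor thus changed with depth.

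**Figure D4:**
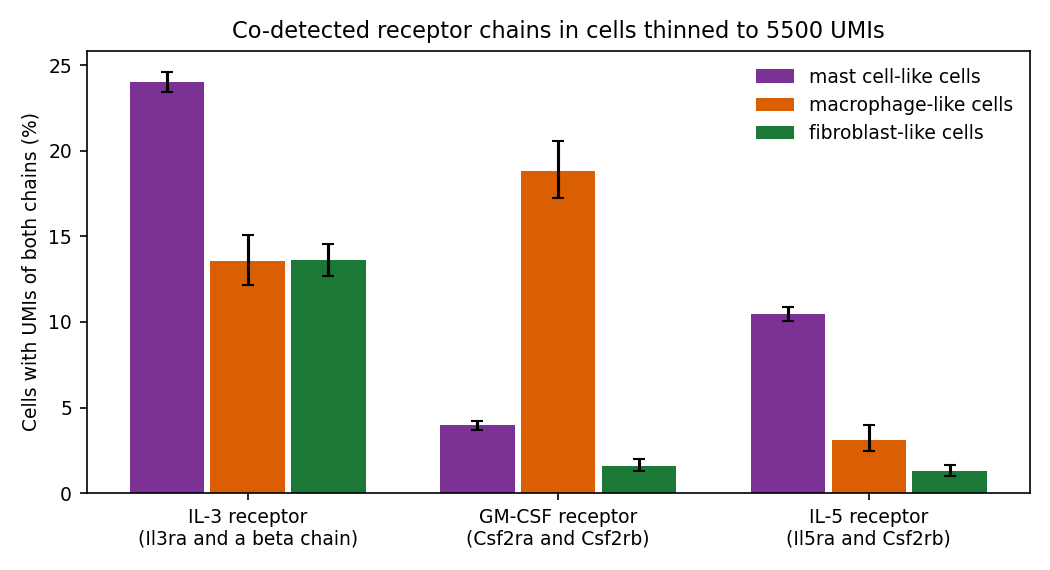
Percent of cells, thinned to 5500 UMIs, with UMIs of an alpha chain and a matching beta chain (vertical axis, starting at 0) for the 3 receptors (horizontal axis), by class; bars are exact Clopper-Pearson 95% intervals. The GM-CSF receptor pair reaches 18.8% in macrophage-like cells against 3.96% in mast cell-like cells, and the IL-3 receptor pair reaches 24.0% in mast cell-like cells.

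Detection of both chains was then compared with the number given by the product of their shares. In mast cell-like cells nearly every cell had Csf2rb, so the count for each alpha chain could not depart far from it (Il3ra with Csf2rb, 4959 cells, 0.999 times the product). In macrophage-like cells Csf2ra and Csf2rb met in 409 cells, 0.904 times (0.818 to 0.996) the product, while Csf2rb and Csf2rb2 met 1.19 times (1.12 to 1.27) and Il5ra and Csf2rb 1.44 times (1.12 to 1.83) as often. In fibroblast-like cells the beta chains met 1.502 times (1.43 to 1.58) and Il5ra and Csf2rb 1.97 times (1.53 to 2.496) as often, and Il3ra with Csf2rb 0.970 times (0.888 to 1.06). The pairs whose interval lay above 1 join genes that were higher in the bins with more mast cell RNA, and the part of that RNA in the co-detection was not tested.

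The ligand genes were almost silent in these cells. Il3 had no UMI in the 30755 kept cells, which allows a level of up to 0.00586 CPM (3 UMIs over all gene UMIs), and 1 UMI in the barcodes left out. Csf2, which encodes GM-CSF, had 129 UMIs in 119 kept cells. Mast cell-like cells held 102 of them, 1 in each of 102 cells (0.335 CPM, 0.273 to 0.407), and these were spread over all 6 clusters. Macrophage-like cells held 6 (0.205 CPM, 0.0754 to 0.447) and fibroblast-like cells 15 in 9 cells (0.0859 CPM, 0.0481 to 0.142), of which 7 were in 1 cell. Il5 had 31 UMIs in 21 kept cells: 16 in fibroblast-like cells, 1 in each of 16 cells (0.0916 CPM, 0.0524 to 0.149), 3 in mast cell-like cells, 0 in macrophage-like cells and 12 in an unnamed cluster of 96 cells, where a single cell held 11. T cells and innate lymphoid cells are usual sources of these cytokines. Of the 47 kept cells with UMIs of at least 2 of 6 T cell markers, 1 had a Csf2 UMI and 0 had an Il5 UMI, and no cluster was named for either cell type.

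Across all genes, a gene was called where its CPM differed more than 2-fold between classes, among 17135 genes with at least 100 UMIs over the 3 classes. Of the 8 members 6 met that minimum, and Il3 and Il5 did not. Csf2 met it by its 102 mast cell-like UMIs, with 15 fibroblast-like and 6 macrophage-like ones besides. A call of Csf2 for the mast cell-like class therefore follows in part from the minimum. Mast cell-like over macrophage-like, 3 members were called (Csf2rb, Csf2rb2 and Il5ra), where 13.3% of all genes were, and macrophage-like over mast cell-like 1 was (Csf2ra), where 21.2% of all genes were. Mast cell-like over fibroblast-like, 4 were called (Csf2rb, Csf2rb2, Il5ra and Csf2), where 15.8% of all genes were. Macrophage-like over fibroblast-like, 5 were called (these 4 and Csf2ra), where 17.5% of all genes were; for Csf2 the interval of the ratio of 2.39 includes 1 (0.760 to 6.52). None of the 6 members tested was called fibroblast-like over mast cell-like or over macrophage-like, where 31.1% and 25.8% of all genes were. Il5, which the minimum left out, had a fibroblast-like over mast cell-like ratio of 9.29 (2.66 to 49.8), from 16 and 3 UMIs. Single-tag cells gave the same members in each comparison, with 22.1% of all genes called mast cell-like over macrophage-like. Both beta chains lost their mast cell-like over macrophage-like call with called doublets kept (macrophage-like over mast cell-like ratios of 0.566 for Csf2rb and 0.552 for Csf2rb2) and at a maximum of 5% mitochondrial UMIs (0.507 and 0.521).

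Genes that carry or curb the receptors' signal were read from 6 lists. Of 13 kinases and STATs, 5 were more than 2-fold higher in macrophage-like than in mast cell-like cells (among them Jak1, Stat3, Lyn and Tec), where 21.2% of all genes were, and 0 lower, where 13.3% were, with a median log2 ratio of mast cell-like over macrophage-like cells of -0.49 against 0.05 over all genes. Stat3, a transcription factor of cytokine signalling, was at 321 CPM in the macrophage-like class and 61.1 CPM in the mast cell-like class. Jak2 and Stat5a, which stand nearest to the receptors, are named although no comparison passed 2-fold, a choice made after their values were seen. Jak2 stood at 64.4, 81.0 and 64.9 CPM in the mast cell-like, then the macrophage-like, then the fibroblast-like class, with Stat5a at 21.8, 27.0 and 17.2 CPM and Stat5b at 67.7, 64.4 and 33.7 CPM. Of 12 adaptors and effectors, 2 were higher in macrophage-like than in mast cell-like cells (Pik3r1 and the ubiquitin ligase Cbl), where 21.2% of all genes were, and 0 lower, where 13.3% were.

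Feedback inhibitors include several STAT5 targets. Of 8, Socs1 and Socs2 were higher in mast cell-like than in macrophage-like cells (13.3% of all genes were), Socs3 was lower (21.2% of all genes were) and 5 did not pass 2-fold, and the median log2 ratio was 0.11. Socs2 was at 363 CPM in the mast cell-like class, 158 CPM in the macrophage-like class and 86.6 CPM in the fibroblast-like class, and Socs1 at 205, 83.0 and 40.8 CPM. Macrophage-like over mast cell-like, the ratio was 0.434 for Socs2 and 0.405 for Socs1, against 0.311 to 0.393 for the 7 mast cell markers. The part of mast cell RNA in these levels was not tested. Cish, a classic STAT5 target, was at 76.7, 41.2 and 14.5 CPM. Socs3 had another order, with 9.49 CPM in the mast cell-like class, 259.5 CPM in the macrophage-like class and 68.2 CPM in the fibroblast-like class. In single-tag cells Cish was also past 2-fold, at 76.9 CPM in the mast cell-like class and 27.6 CPM in the macrophage-like class, while Socs1 and Socs2 were 4.82 and 4.18 times higher in mast cell-like cells and Socs3 was 37.5 times higher in macrophage-like cells. Against fibroblast-like cells, 5 of 8 were higher in mast cell-like cells (Cish, Socs1, Socs2, Ptpn6 and Inpp5d) and 1 lower (Socs3), where 15.8% and 31.1% of all genes were, with a median log2 ratio of 2.18 against -0.10 over all genes.

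Of 10 cytokine-induced targets, 2 were higher in mast cell-like than in macrophage-like cells (Pim2 and Ccnd2) and 2 lower (Mcl1 and Fos), near the 13.3% and 21.2% of all genes, with a median log2 ratio of -0.12. Pim1, a survival kinase, was at 496 CPM in the mast cell-like class and 532 CPM in the macrophage-like class against 132 CPM in the fibroblast-like class. Osm, which encodes oncostatin M, was at 92.2, 65.3 and 16.7 CPM in that order. Of 6 macrophage genes associated with GM-CSF, 5 were tested. Itgax, Irf4, Pparg and Mmp12 were higher in macrophage-like cells, at 7.67, 20.5, 40.0 and 34.0 CPM against 0.0197 to 0.736 CPM in the mast cell-like class. Ccl17 was higher in mast cell-like cells, at 6.73 against 2.81 CPM. Of all genes, 21.2% were past 2-fold macrophage-like over mast cell-like and 13.3% the other way. Pparg, the nuclear receptor, was at 42.5 CPM in the fibroblast-like class too.

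Of 20 other cytokine receptors, 18 were tested, 3 were higher in mast cell-like than in macrophage-like cells (Kit, Il1rl1 and Il9r) and 9 lower, where 13.3% and 21.2% of all genes were. Kit, the receptor of stem cell factor, was at 1315 CPM in the mast cell-like class and 510.3 CPM in the macrophage-like class, a ratio of 2.58 (2.53 to 2.62) that rose to 5.03 in single-tag cells. Il1rl1, the receptor of interleukin 33, was at 2041 and 848 CPM. Macrophage-like over mast cell-like, the ratio was 0.388 for Kit and 0.415 for Il1rl1, against 0.311 to 0.393 for the 7 mast cell markers. How much of these macrophage-like levels is RNA of mast cells was not tested. Csf1r, the M-CSF receptor, was at 2.51 CPM in the mast cell-like class, 491 CPM in the macrophage-like class and 9.43 CPM in the fibroblast-like class. Csf3r, the receptor of granulocyte colony-stimulating factor, was at 0.217, 35.5 and 0.464 CPM. Osmr, the receptor of oncostatin M, was at 253 CPM in the fibroblast-like class against 3.72 CPM in the mast cell-like class and 6.92 CPM in the macrophage-like class.

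Likeness to the members was measured by Pearson's r of log2(CPM + 1) over the 9 clusters, among 12561 genes with at least 1000 UMIs, and given as a description of clusters that share 1 library. The genes most like Csf2rb were Gpr174 (r = 0.994), Gata2 (0.991), Cd300lf (0.991), Adora3 (0.990) and Slc30a2 (0.989). Gata2, a transcription factor of mast cells, was at 859 CPM in cluster 4, 764 CPM in cluster 0 and 102 CPM in the fibroblast-like class. Those most like Csf2ra were Irf5 (0.988), Tagap (0.988), Epsti1 (0.987), Ptafr (0.987) and Slamf7 (0.985). Irf5, an interferon regulatory factor, was at 50.1 CPM in the macrophage-like cluster and between 1.82 and 7.79 CPM in the others. Among the receptor chains themselves r was 0.988 for Csf2rb and Csf2rb2 and 0.856 for Csf2rb and Il5ra, but -0.115 for Csf2rb and Csf2ra and 0.214 for Csf2rb and Il3ra. All values of r in this paragraph include the differences between classes. Within the mast cell-like class Csf2rb and Il5ra did not rise together. They were at 1701 and 15.4 CPM in cluster 0, and at 961 and 27.1 CPM in cluster 6.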

How the data were processed

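The authors deposited raw UMI counts per gene and barcode for 1 library, and per the file headers Cell Ranger 7.0.0 made them. The submitters' processing notes also name STAR, R 4.1.3, Seurat 4.1.1 and mm10, without their role. Annotation, intron counting and strand use are not given in the sources used here. The 3 tag features held 21.9% of all UMIs and were kept out of gene totals. The library of tag reads was not analysed here.

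Filters on barcodes (500 genes and 1000 UMIs as minimums, 10% mitochondrial UMIs as maximum) left 33964. Scrublet called 3245 of all barcodes doublets (9.32%, against 27.9% expected from the loading), and the 3209 of these that had passed the filters were removed. Clustering used scanpy 1.11.5 and leidenalg 0.10.2 with 2000 variable genes, 30 principal components, 15 neighbours and resolution 0.5, leaving out 77 listed genes (members and pathway genes). A cluster of at least 100 cells was named where most markers of 1 cell type passed. A marker passed at 50 CPM or more and at least 4-fold over the lowest cluster of that size. No name was given where more leading genes were markers of another type. Shallow clusters without a marker of the type among their leading genes also stayed unnamed, such as cluster 8 (219 cells, median 3727 UMIs, 6 of 7 mast cell markers passing). These thresholds were set after seeing the data, and the names are rebuilt, so they may differ from the authors'. Cells were called for a tag above a multiple of its background.

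Levels are summed UMIs per 1000000 gene UMIs with exact Poisson intervals, shares have Clopper-Pearson intervals and ratios have exact conditional binomial intervals, all at 95%. With 1 library no test between groups was possible. The ratio and 2-fold steps and the Clopper-Pearson intervals were tested on simulated data, and the thinning step was not. The members and lists were chosen with earlier results of these data known. Besides the members, up to 3 genes with the largest and 3 with the smallest ratio past 2-fold were named per list and comparison, and the 5 genes most like Csf2rb and Csf2ra. 1 gene that this rule names is not reported here. Alternatives were doublets kept, 5% mitochondrial UMIs, other resolutions, clusters led by Ctsg left out, single-tag cells, subtraction of mast cell RNA, other UMI minimums and other thinning. The 5 bins by mast cell RNA and the single-tag counts of genes past 2-fold were added after seeing the data.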

Additional observations from a re-analysis of the deposited data

Results flagged for a closer look

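Signal of a ligand gene appeared in unnamed clusters, which no comparison uses. Unnamed cluster 8 (219 cells, led by Calca) held 4 Csf2 UMIs, all in 1 cell. Unnamed cluster 9 (96 cells) held 12 Il5 UMIs in 2 cells, 11 of them in 1 cell.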

How the results depend on the processing

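No paired analysis was possible because there was 1 library. No macrophage-like over mast cell-like ratio of a receptor chain crossed 1 under the alternatives run. The order of classes for Il3ra with a beta chain did turn: unthinned, the share was 44.5% in mast cell-like and 65.6% in fibroblast-like cells, against 24.0% and 13.6% thinned. The macrophage-like over mast cell-like ratio of Csf2rb was 0.566 with called doublets kept, 0.507 at 5% mitochondrial UMIs, 0.447 at resolution 1, 0.235 in single-tag cells and 0.0832 after subtracting mast cell RNA at the median marker ratio. In the same order the ratio of Csf2rb2 was 0.552, 0.521, 0.460, 0.224 and 0.0843. Both beta chains thus were not past 2-fold with called doublets kept or at 5% mitochondrial UMIs. For Csf2ra it was 7.09 with doublets kept and 11.1 in single-tag cells. For Il3ra it was 0.813 at resolution 1, 0.691 in single-tag cells and 0.390 after subtraction. For Il5ra it was 0.484 with doublets kept, 0.394 at 5% mitochondrial UMIs, 0.139 in single-tag cells and -0.0299 after subtraction, so no Il5ra level was left over. Csf2rb2 per 100 Csf2rb UMIs in mast cell-like cells was 93.8 at 5% mitochondrial UMIs and 92.9 at resolution 1.

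The share of mast cell-like cells with Il3ra and a beta chain was 23.3% at 5% mitochondrial UMIs, 22.0% at resolution 1, 24.8% without the cluster led by Ctsg, 3.56% with at least 2 UMIs of each gene, 12.0% thinned to 2500 UMIs and 44.5% unthinned. The share of macrophage-like cells with Csf2ra and Csf2rb was 17.1% in single-tag cells, 1.61% with at least 2 UMIs, 5.82% thinned to 2500 UMIs and 32.9% unthinned.

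With a minimum of 1 UMI, genes past 2-fold numbered 5932 mast cell-like over macrophage-like and 6463 the other way, 4547 mast cell-like over fibroblast-like and 10162 the other way, and 4971 macrophage-like over fibroblast-like and 9332 the other way. With at least 1000 UMIs they numbered 1360 mast cell-like over macrophage-like, 2069 macrophage-like over mast cell-like, 2955 fibroblast-like over mast cell-like and 2491 fibroblast-like over macrophage-like. In single-tag cells 3785 genes were past 2-fold mast cell-like over macrophage-like.

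Of 90 recomputed receptor chain levels, 84 lay within 1.5 times the reported one, and the other 6 were those of Csf2rb, Csf2rb2 and Il5ra in single-tag macrophage-like and fibroblast-like cells. Of the ligand levels, 2 lay beyond 1.5 times: Csf2 in fibroblast-like cells was 0.0476 CPM in single-tag cells, and Il5 in mast cell-like cells was 0.00427 CPM at resolution 1. At resolution 1, 10048 cells stayed unnamed, and at 5% mitochondrial UMIs 2962 did. Apart from subtraction and thinning, whose construction sets the change, the cause was not tested.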
